A study of Mus musculus with 76 samples.

Results

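The genes of MHC class II antigen presentation were followed through tumours of a mouse directed complementation model. The list names 7 genes: the chains H2-Aa, H2-Ab1 and H2-Eb1, the peptide exchange factor subunits H2-DMa and H2-DMb1, the invariant chain Cd74 and the transactivator Ciita. Each gene was read on its probe set with the highest mean, and 6 of the 7 had a probe set of their own, out of 18194 genes on the array. The probe sets of H2-DMb1 are shared with its neighbour H2-DMb2, so this pair is described separately and not counted. All 6 passed the filter on low values that left 13868 genes for testing; 5 did so in all 76 arrays, and Ciita in 39 (6 of MAP3K11 and 33 of the other groups).

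The data are 76 Affymetrix arrays of tumour RNA from C57BL/6 mice. All groups derive from tumours raised on a doxycycline-inducible HER2 oncogene carrying V659E. The oncogene was shut off by taking doxycycline away before a gene or gene form was put in to sustain growth, giving 13 groups. The introduced genes were the receptor kinases ErbB3, FGFR2aIIIb, FGFR2aIIIc, FGFR3, HER2, RONd160 and RON+MSP (labelled as RON with MSP, its ligand), the intracellular kinases FAK1, RSK2, TNK2, MAP3K7 (TAK1) and MAP3K11 (MLK3), and the lipid kinase PIP5K1B. There were 4 arrays of FAK1 and 6 of each remaining group. The 6 MAP3K11 arrays carry the label cachexia, a wasting of the body in cancer, and the other 70 the label no cachexia, so the introduced gene and the cachexia label cannot be told apart. Every array is also labelled T1, T2 or T3, with no meaning given. Ages, the animals and the tumour line behind each array are not given, so effects of an introduced gene and of a tumour line cannot be told apart either, and p-values measure the spread between arrays, which may be partly technical. As a check of the tissue, the epithelial keratin Krt8 lay between 10.42 and 13.35 on the log2 scale over all arrays, and the epithelial adhesion molecule Epcam between 6.70 and 7.71. Other epithelial genes varied more: outside MAP3K11, the keratin Krt18 ran from 5.22 to 13.48 and the cadherin Cdh1 from 3.73 to 8.91. Epithelial signal was thus not uniform over the arrays.

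As background, class II molecules are pairs of an α and a β chain that display peptides from ingested proteins to CD4+ T cells. H2-Aa and H2-Ab1 encode the 2 chains of I-A, and H2-Eb1 the β chain of I-E, whose α chain gene H2-Ea is inactive in C57BL/6 mice. The invariant chain Cd74 fills the groove of new molecules, and H2-DM, made of H2-DMa and an H2-DMb chain, exchanges its remnant for peptide. Ciita binds no DNA itself but is recruited to class II promoters by factors that sit on the X and Y boxes, and it is the switch that turns the family on in dendritic cells, B cells and macrophages, and in other cells after interferon gamma. Bulk tumour RNA holds all of these cells, so more cells of a type and more RNA per cell cannot be told apart.

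Letters of the X and Y boxes were found in the promoter windows of 3 listed genes, which are printed to show them; H2-Ab1, Cd74 and Ciita were not analysed here. In RefSeq promoter windows of the assembly GRCm38.p6 (250 bases before to 50 after a gene's start), the letters CTNGNAAC, part of the X box, and TGATTGG, the Y box, were searched on both strands; the motifs do not share bases. Of 32851 windows, 13.2% held the first and 7.82% the second, and 28 windows (0.0852%) held them in this order on 1 strand with 10 to 40 bases between. The windows of H2-Aa, H2-Eb1 and H2-DMb1 were among these 28, as was that of H2-Ob, a chain of the related H2-DO. Neither motif was found in the 2 windows of H2-DMa. The motif letters and the spacing were chosen after these sequences had been seen, and a match is only a match of letters. The last 130 bases before the start are shown 5′ to 3′ on the strand of the gene, with both motifs in capitals: chr17:34287824-34287953 on the minus strand for H2-Aa, chr17:34305737-34305866 on the plus strand for H2-Eb1, and chr17:34153061-34153190 on the plus strand for H2-DMb1.
H2-Aa: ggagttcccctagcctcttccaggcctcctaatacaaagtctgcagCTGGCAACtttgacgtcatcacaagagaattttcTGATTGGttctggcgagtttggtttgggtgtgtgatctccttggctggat
H2-Eb1: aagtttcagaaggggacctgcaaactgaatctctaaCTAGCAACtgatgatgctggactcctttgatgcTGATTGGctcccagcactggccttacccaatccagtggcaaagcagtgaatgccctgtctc
H2-DMb1: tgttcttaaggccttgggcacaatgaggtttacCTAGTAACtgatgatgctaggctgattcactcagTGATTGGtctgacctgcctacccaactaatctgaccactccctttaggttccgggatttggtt
In H2-Aa and H2-DMb1 26 bases lie between the motifs, and in H2-Eb1 25. The first motif begins at position -84 from the start in H2-Aa, -94 in H2-Eb1 and -97 in H2-DMb1.

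Values are the deposited log2 expression values. Array medians lay between 5.45 and 5.56, and the median of 3 probe sets for bacterial trp, a control that mouse RNA should not bind, was 2.95; every array was above it for all 6 genes. Differences come from limma over all arrays, with terms for introduced gene and T label. They are given with their SE and were called at a Benjamini-Hochberg adjusted p under 0.05 over the 13868 genes tested. Arrays of each group were matched in couples: 38 pairs were formed by maximising the correlation of their autosome medians of expression. The median Pearson r was 0.957 within pairs and 0.161 for other arrays of a group, a gap partly set by this choice. In the MAP3K11 pairs r was 0.80, 0.95 and 0.47, so the pairing is less certain in that group. With chromosome medians removed, expression still correlated at a median of 0.771 within pairs and 0.271 between other arrays of a group. Calls are therefore also given with the pairs as a random block, in which the correlation was 0.63.

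The classical chains were highest in the MAP3K11 tumours. H2-Aa measured 11.36 in the lowest MAP3K11 array, 12.33 in the highest and 11.67 at the median. Its mean was 11.74 ± 0.34 (SD, n = 6), 1.02 log2 units above the next group. MAP3K7 (10.73 ± 0.14, n = 6), RONd160 (10.72 ± 0.36), RSK2 (10.55 ± 0.49) and ErbB3 (10.52 ± 1.44) came next. TNK2 (10.38 ± 0.73), HER2 (10.26 ± 1.16), FAK1 (10.19 ± 0.32, n = 4) and RON+MSP (10.03 ± 0.49) lay in the middle of the order. FGFR3 (9.84 ± 0.42), PIP5K1B (9.82 ± 0.77), FGFR2aIIIb (9.65 ± 1.08) and FGFR2aIIIc (9.58 ± 0.38) were lowest. Of the 12 steps between neighbours in this order, the ranges of the arrays overlapped in 11, and the step from MAP3K11 to MAP3K7 was the exception. The MAP3K11 range was still reached by 5 arrays of other groups, 2 of ErbB3, 2 of HER2 and 1 of TNK2.

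H2-Ab1, the partner of H2-Aa in I-A, had nearly the same order. It measured 11.26, 11.55 and 11.94 in the lowest, median and highest MAP3K11 array, with a mean of 11.58 ± 0.24 (SD, n = 6). RONd160 (10.52 ± 0.37), MAP3K7 (10.49 ± 0.16), RSK2 (10.40 ± 0.44), ErbB3 (10.23 ± 1.45) and TNK2 (10.06 ± 0.73) followed. FAK1 (9.94 ± 0.40, n = 4), HER2 (9.91 ± 1.11), RON+MSP (9.79 ± 0.51) and PIP5K1B (9.55 ± 0.76) were lower, and FGFR3 (9.50 ± 0.46), FGFR2aIIIb (9.40 ± 1.01) and FGFR2aIIIc (9.28 ± 0.35) lowest. Here too the gap below MAP3K11 was the only step between neighbours at which the ranges did not overlap. Only 3 arrays outside MAP3K11 reached its range, 1 each of ErbB3, HER2 and TNK2.

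For H2-Eb1, the β chain of I-E, the MAP3K11 arrays lay between 7.22 and 7.96 with a median of 7.43 and a mean of 7.50 ± 0.28 (SD, n = 6). RONd160 (6.87 ± 0.26), HER2 (6.67 ± 0.73), RSK2 (6.57 ± 0.46), ErbB3 (6.55 ± 1.16), MAP3K7 (6.54 ± 0.22) and TNK2 (6.50 ± 0.40) came next. RON+MSP (6.35 ± 0.27), FAK1 (6.33 ± 0.30, n = 4), FGFR2aIIIb (6.23 ± 0.56), PIP5K1B (6.20 ± 0.40), FGFR2aIIIc (6.15 ± 0.26) and FGFR3 (5.97 ± 0.24) closed the order. All 12 neighbouring ranges overlapped, because 1 RONd160 array (7.26) reached into the MAP3K11 range. Against the other 12 groups, each given equal weight, MAP3K11 was higher by 1.54 ± 0.31 (SE) in H2-Aa (adjusted p = 2.50e-05), by 1.64 ± 0.30 in H2-Ab1 (5.49e-06) and by 1.08 ± 0.21 in H2-Eb1 (1.48e-05). These 3 calls held with the pairs as a block, at adjusted p = 0.000838, 0.000338 and 0.00125.

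The invariant chain Cd74 followed the I-A chains. It measured 11.86, 12.10 and 12.53 in the lowest, median and highest MAP3K11 array (mean 12.13 ± 0.25, SD, n = 6). MAP3K7 (11.32 ± 0.19), RONd160 (11.27 ± 0.32), RSK2 (11.13 ± 0.47), ErbB3 (11.03 ± 1.32) and TNK2 (10.97 ± 0.74) came next. FAK1 (10.84 ± 0.31, n = 4), HER2 (10.82 ± 1.01), RON+MSP (10.62 ± 0.38) and PIP5K1B (10.47 ± 0.72) were lower, and FGFR3 (10.38 ± 0.41), FGFR2aIIIb (10.24 ± 0.95) and FGFR2aIIIc (10.14 ± 0.21) lowest. Every MAP3K11 array lay above every MAP3K7 and RONd160 array, and 4 arrays of ErbB3, HER2 and TNK2 reached the MAP3K11 range. Cd74 was higher in MAP3K11 by 1.35 ± 0.28 (SE; adjusted p = 4.06e-05, and 0.0008 with the block).

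The peptide exchange factor differed less between groups. H2-DMa measured 8.92 in the lowest MAP3K11 array, 9.05 at the median and 9.58 in the highest, with a mean of 9.15 ± 0.26 (SD, n = 6). TNK2 (8.73 ± 0.43), RONd160 (8.72 ± 0.36), ErbB3 (8.62 ± 0.91), FAK1 (8.48 ± 0.11, n = 4), RSK2 (8.48 ± 0.68) and HER2 (8.35 ± 0.93) followed. MAP3K7 (8.33 ± 0.63), PIP5K1B (8.33 ± 0.35), FGFR3 (8.20 ± 0.62), RON+MSP (8.10 ± 0.39), FGFR2aIIIb (7.93 ± 0.84) and FGFR2aIIIc (7.86 ± 0.35) were lower. Every neighbouring pair overlapped, no step between neighbours exceeded 0.41 log2 units, and 13 arrays of other groups reached the MAP3K11 range. H2-DMa was higher in MAP3K11 than in the other groups by 0.79 ± 0.25 (SE; adjusted p = 0.00597, and 0.0293 with the block). The probe set shared by H2-DMb1 and H2-DMb2 averaged 9.36 ± 0.30 (SD, n = 6) in MAP3K11, 8.86 ± 0.35 in RONd160 and 8.74 ± 0.54 in TNK2, and was lowest in FGFR2aIIIc (7.84 ± 0.31). It was higher in MAP3K11 by 1.01 ± 0.25 (SE), and the other shared probe set by 1.10 ± 0.26, with adjusted p = 0.000536 and 0.000305 over 29981 probe sets. Which of the 2 H2-DMb genes this is cannot be read from them; the probe set of H2-DMb2 alone was higher by 0.55 ± 0.19.

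Ciita, the transactivator, had the fewest arrays of other groups within the MAP3K11 range. Its MAP3K11 arrays measured 5.4997, 5.82 and 5.95 at the lowest, median and highest, with a mean of 5.78 ± 0.16 (SD, n = 6). RONd160 (5.16 ± 0.14), RSK2 (5.02 ± 0.21), FAK1 (4.95 ± 0.19, n = 4), HER2 (4.91 ± 0.43), TNK2 (4.89 ± 0.28) and ErbB3 (4.85 ± 0.67) came next. MAP3K7 (4.83 ± 0.30), RON+MSP (4.79 ± 0.24), FGFR3 (4.71 ± 0.10), FGFR2aIIIb (4.70 ± 0.39), FGFR2aIIIc (4.52 ± 0.23) and PIP5K1B (4.51 ± 0.29) were lower. A single array outside MAP3K11, ErbB3 T3 replicate 2, reached the MAP3K11 range. Ciita was higher in MAP3K11 by 0.95 ± 0.13 (SE; adjusted p = 1.08e-08, and 7.47e-05 with the block). MAP3K7, which stood 2nd in H2-Aa and Cd74, stood 8th in Ciita.

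**Figure D1:**
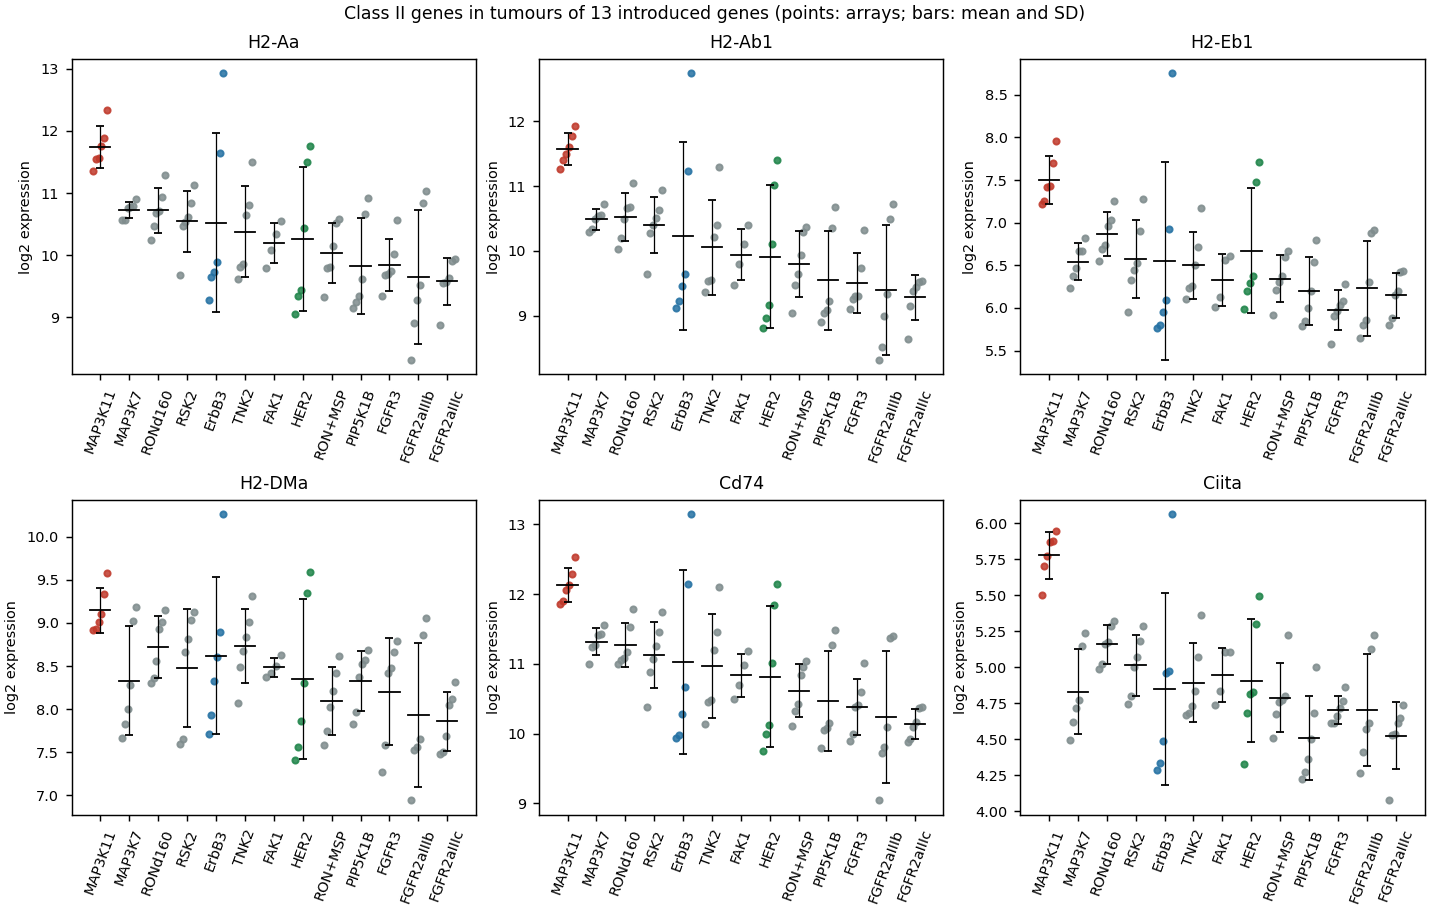
Log2 expression of the 6 measured class II genes in the 13 groups, ordered by the mean of Cd74; points are arrays and bars the mean and SD. The MAP3K11 mean (red points) is the highest in each panel, ErbB3 T3 replicate 2 (the top blue point) lies above every MAP3K11 array in all 6, and in H2-DMa 13 arrays of other groups reach the MAP3K11 range, 1 HER2 array (9.5951) also above all of it.

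Set against the other 12 groups, 6 of the 6 genes were therefore higher in MAP3K11, with 25% of all genes tested called higher. With the pairs as a block all 6 remained called, against 17.3% of all genes. The median difference of the 6 was 1.21 log2 units, and that of all genes tested was -0.01. The count was 6 when any MAP3K11 array was left out, and 6 without the pair ErbB3 T1 replicate 2 and ErbB3 T3 replicate 2. The other probe sets of the same genes were called higher too, over 29981 probe sets: for H2-Aa they were higher by 0.81 to 1.54, for H2-Ab1 by 1.55 on both, for H2-DMa by 0.48 and for Ciita by 0.48 and 0.19. The weakest of H2-Aa (0.81) and of Ciita (0.19) were above the trp level in 15 and 28 arrays. Over all 13 groups, limma's F test called 6 of 6 genes (85.9% of all genes), and 4 with the pairs as a block (54% of all genes), where H2-Eb1 (adjusted p = 0.0638) and H2-DMa (0.231) missed.

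MAP3K7 tumours were set apart as those of another kinase at the head of MAP kinase cascades. Every MAP3K11 array exceeded every MAP3K7 array in 5 of the 6 genes, H2-DMa being the exception; this held for 6.21% of all genes tested. Ciita measured 4.50 to 5.24 in the MAP3K7 arrays and was higher in MAP3K11 by 0.95 ± 0.18 (SE; adjusted p = 2.33e-05). H2-Eb1 was higher by 0.96 ± 0.29 (0.00572), H2-Ab1 by 1.09 ± 0.41 (0.03) and H2-Aa by 1.02 ± 0.42 (0.0498), which made 4 called genes beside 16.6% of all genes. H2-DMa (0.82 ± 0.34, adjusted p = 0.0522) and Cd74 (0.81 ± 0.38, 0.0852) did not pass. With the pairs as a block only Ciita was called (adjusted p = 0.00687), against 8.8% of all genes. The count was 2, H2-Eb1 and Ciita, without MAP3K11 T1 replicate 2, without MAP3K11 T2 replicate 1 or without MAP3K7 T3 replicate 1. H2-Aa was not called when any 1 array of these 2 groups was left out, while all 6 genes were called without the pair ErbB3 T1 replicate 2 and ErbB3 T3 replicate 2. H2-Aa, H2-Ab1 and Cd74 were nearly level within MAP3K7, with SDs of 0.14 to 0.19, while H2-DMa ranged from 7.67 to 9.18 there.

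Against the tumours given HER2 itself, the original driver, 6 of 6 genes were higher in MAP3K11, beside 21.5% of all genes. H2-Ab1 differed by 1.67 ± 0.41 (SE; adjusted p = 0.000571), H2-Aa by 1.48 ± 0.42 (0.00255), Cd74 by 1.32 ± 0.38 (0.003), Ciita by 0.87 ± 0.18 (5.21e-05), H2-Eb1 by 0.83 ± 0.29 (0.0133) and H2-DMa by 0.80 ± 0.34 (0.0465). With the pairs as a block 4 remained, against 13.9% of all genes; H2-Eb1 (0.0846) and H2-DMa (0.13) did not. HER2 was split: its pair T1 replicate 1 and T2 replicate 2 measured 11.76 and 11.50 in H2-Aa, and the other 4 arrays 9.06 to 10.45. The same pair stood apart in Cd74 (12.14 and 11.85, against 9.75 to 11.02) and in H2-Eb1 (7.71 and 7.48, against 5.99 to 6.37). Only Ciita had all MAP3K11 arrays above all HER2 arrays (lowest 5.4997 against highest 5.4985), as did 13.2% of all genes tested. Without the pair 6 of 6 genes were again called. H2-DMa alone was lost when 1 of the other 4 HER2 arrays, or any MAP3K11 array but T2 replicate 2, was left out, and also with arrays centred on their median or with no filter.

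**Figure D2:**
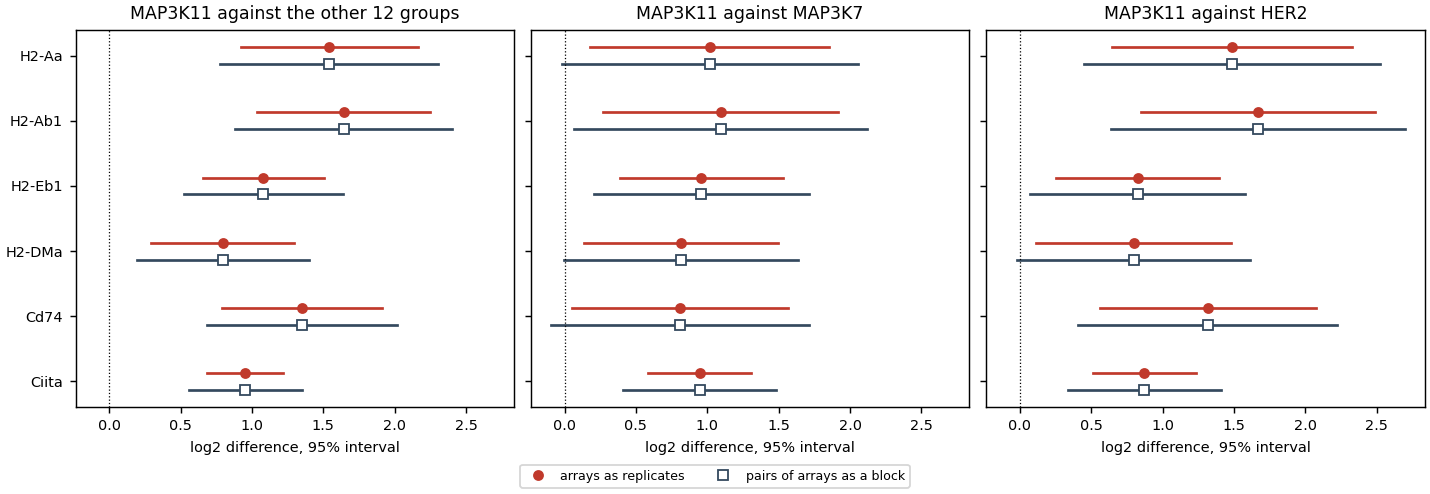
Log2 difference of each class II gene in MAP3K11 from the other 12 groups, from MAP3K7 and from HER2, with 95% intervals from limma, arrays counted as replicates (circles) or pairs of arrays taken as a block (squares). The 6 intervals against the other groups lie above 0 in both fits, and against MAP3K7 the block widens those of H2-Aa, H2-DMa and Cd74 across 0.

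Outside MAP3K11, few class II genes passed the test against the rest. By limma 0 of 6 were called in each of ErbB3, FAK1, FGFR2aIIIb, FGFR2aIIIc, FGFR3, HER2, MAP3K7, RON+MSP, RONd160, RSK2 and TNK2. At an unadjusted p under 0.05 there were 5 in FGFR2aIIIc and 4 in FGFR2aIIIb, all lower, 1 in FGFR3 (H2-Eb1, lower), 1 in RONd160 (Ciita, higher) and 0 in each of the rest. The share of all genes called in either direction was 28.6% for ErbB3, 26.6% for HER2, 24.4% for MAP3K7, 23.3% for RONd160, 18.2% for RSK2 and 11.9% for FGFR2aIIIb. It was 8.57% for RON+MSP, 8.42% for FAK1, 5.16% for TNK2, 2.6% for FGFR3 and 1.62% for FGFR2aIIIc.

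The FGF receptor groups and PIP5K1B stood at the low end. The median difference of the 6 genes was -0.68 in FGFR2aIIIc, -0.61 in FGFR2aIIIb, -0.49 in FGFR3 and -0.43 in PIP5K1B, on the log2 scale. Cd74 in FGFR2aIIIc differed by -0.77 ± 0.28 (SE; adjusted p = 0.143) and H2-Ab1 by -0.81 ± 0.30 (0.163). In FGFR2aIIIb, Cd74 differed by -0.70 ± 0.28 (0.0882), and leaving out FGFR2aIIIb T2 replicate 2 gave 3 called genes, H2-Aa, H2-Ab1 and Cd74, all lower. Leaving out FGFR2aIIIb T3 replicate 2 gave 1, Cd74. Within FGFR2aIIIb, H2-Aa spanned 8.32 to 11.03 and Cd74 9.04 to 11.40, so this group reached from the lowest array of the series to above the RSK2 median.

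PIP5K1B had the only call outside MAP3K11. Ciita was lower there by limma (-0.42 ± 0.13, SE; adjusted p = 0.0225), 1 of 6 genes beside 7.45% of all genes called lower. Its PIP5K1B arrays measured 4.23, 4.43 and 5.0034 at the lowest, median and highest and overlapped those of every other group but MAP3K11. They lay below the lowest array median (5.45), so low signal limits this call. With the block the adjusted p was 0.242, with 1.24% of all genes called lower. The call was also lost without PIP5K1B T1 replicate 1, T2 replicate 2, T2 replicate 3 or T3 replicate 2, when 0 genes were called. At the high end RONd160 had a median difference of 0.40, MAP3K7 of 0.24 and RSK2 of 0.21, none with a called gene. Without the high ErbB3 pair, RONd160 had 2 called genes, H2-Eb1 and Ciita, both higher.

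**Figure D3:**
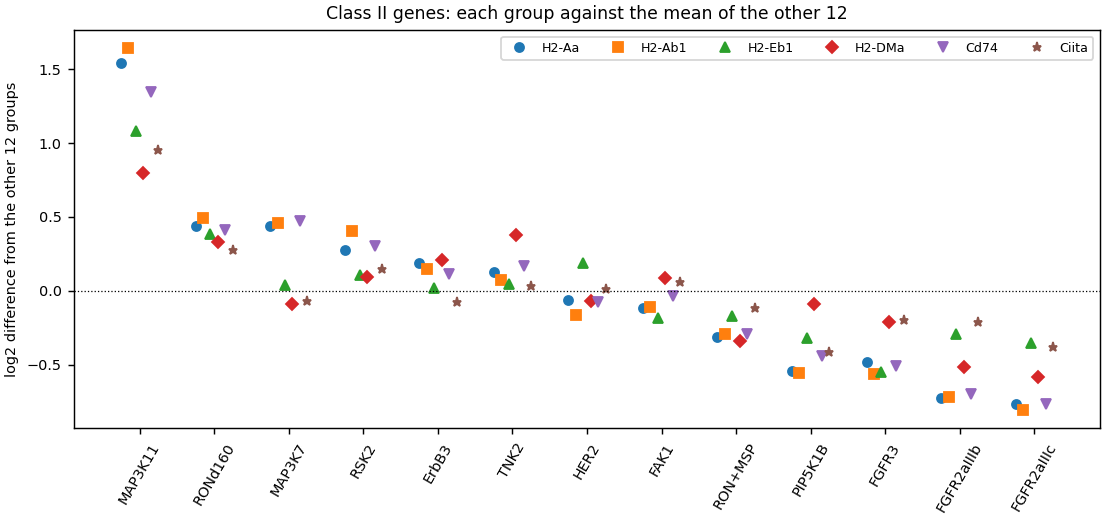
Log2 difference of each of the 6 class II genes in each group from the mean of the other 12, groups ordered by the median of the 6. MAP3K11 stands apart at 0.79 to 1.64, and FGFR2aIIIc and FGFR2aIIIb lie lowest.

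The highest class II values of the series were in a tumour of another group. ErbB3 T3 replicate 2 measured 12.92 in H2-Aa, 12.74 in H2-Ab1, 8.75 in H2-Eb1, 10.26 in H2-DMa, 13.15 in Cd74 and 6.07 in Ciita. It was above all MAP3K11 arrays in all 6 genes. The array matched to it, ErbB3 T1 replicate 2, measured 11.65 in H2-Aa, 11.23 in H2-Ab1, 6.93 in H2-Eb1, 8.89 in H2-DMa, 12.14 in Cd74 and 4.97 in Ciita. It lay within the MAP3K11 range in H2-Aa and Cd74 and below it in the other 4 genes. The difference inside this pair, 1.00 in Cd74 to 1.82 in H2-Eb1, was the largest of the 38 pairs for each of the 6 genes. The other 4 ErbB3 arrays were low, with H2-Aa between 9.29 and 9.89. Without the pair, 2 genes were called lower in ErbB3, H2-Eb1 and Ciita.

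ErbB3 T3 replicate 2 also held the highest values of several leukocyte genes. These were the pan-leukocyte phosphatase Ptprc (11.25), the macrophage genes Csf1r (12.61) and Adgre1 (10.48), and the interferon-induced factor Irf1 (10.63). The cytokine Ifng measured 4.03 there, and 72 of the 76 arrays were at or below the trp level for it. The mean of the 6 measured T cell markers stood 1.47 log2 units above its average over arrays, against -0.28 to 1.47 over all arrays outside MAP3K11 and 0.01 to 0.21 in MAP3K11. The MAP3K11 tumours, by contrast, had Irf1 between 8.60 and 9.08, while the other arrays began at 9.04. What these genes contribute to the class II values was not tested.

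Over the 76 arrays the 6 genes varied together. The 15 pairs of genes had Pearson correlations of 0.68 (H2-DMa with Ciita) to 0.99 (H2-Aa with H2-Ab1), with a median of 0.86. With group means removed they ran from 0.62 to 0.99 (median 0.83), and without MAP3K11 from 0.64 to 0.99 (n = 70). The points share arrays, and arrays of a pair resemble each other; over the 38 pair means the range was 0.69 to 0.99. The SD between arrays of a pair was 0.25 to 0.40, and that of pair means within a group 0.28 (Ciita) to 0.74 (H2-Aa). In H2-Aa, H2-Ab1, H2-Eb1, H2-DMa and Cd74 the pairs of a group thus lay further apart than the group means, whose SD was 0.35 to 0.62; in Ciita the group means were further apart (0.32).

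Of 13862 other genes tested, those most like the mean of H2-Aa, H2-Ab1, H2-Eb1 and Cd74 over the 76 arrays were Klrb1b (r = 0.86), Itgax (0.85), Slamf8 (0.85), H2-Ea (0.83) and Ipcef1 (0.83). Klrb1b is a receptor of natural killer cells, Itgax the integrin CD11c of dendritic cells, and Slamf8 a surface protein of myeloid cells. With group means removed, the 5 had correlations of 0.77 to 0.85. For Ciita the nearest were H2-Ea (0.83), Itgax (0.75), Klrb1b (0.74), Qpct (0.74) and Slamf8 (0.73). With group means removed, these fell to 0.72, 0.57, 0.65, 0.47 and 0.70. The general leukocyte marker Ptprc correlated at 0.29 with the mean of the 4 chains and the macrophage marker Adgre1 at -0.06. Once group means were removed, Ptprc correlated at 0.41 and Adgre1 at 0.22. Irf1 correlated at 0.04 over all arrays and at 0.58 once group means were removed; the MAP3K11 arrays had high class II and low Irf1.

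**Figure D4:**
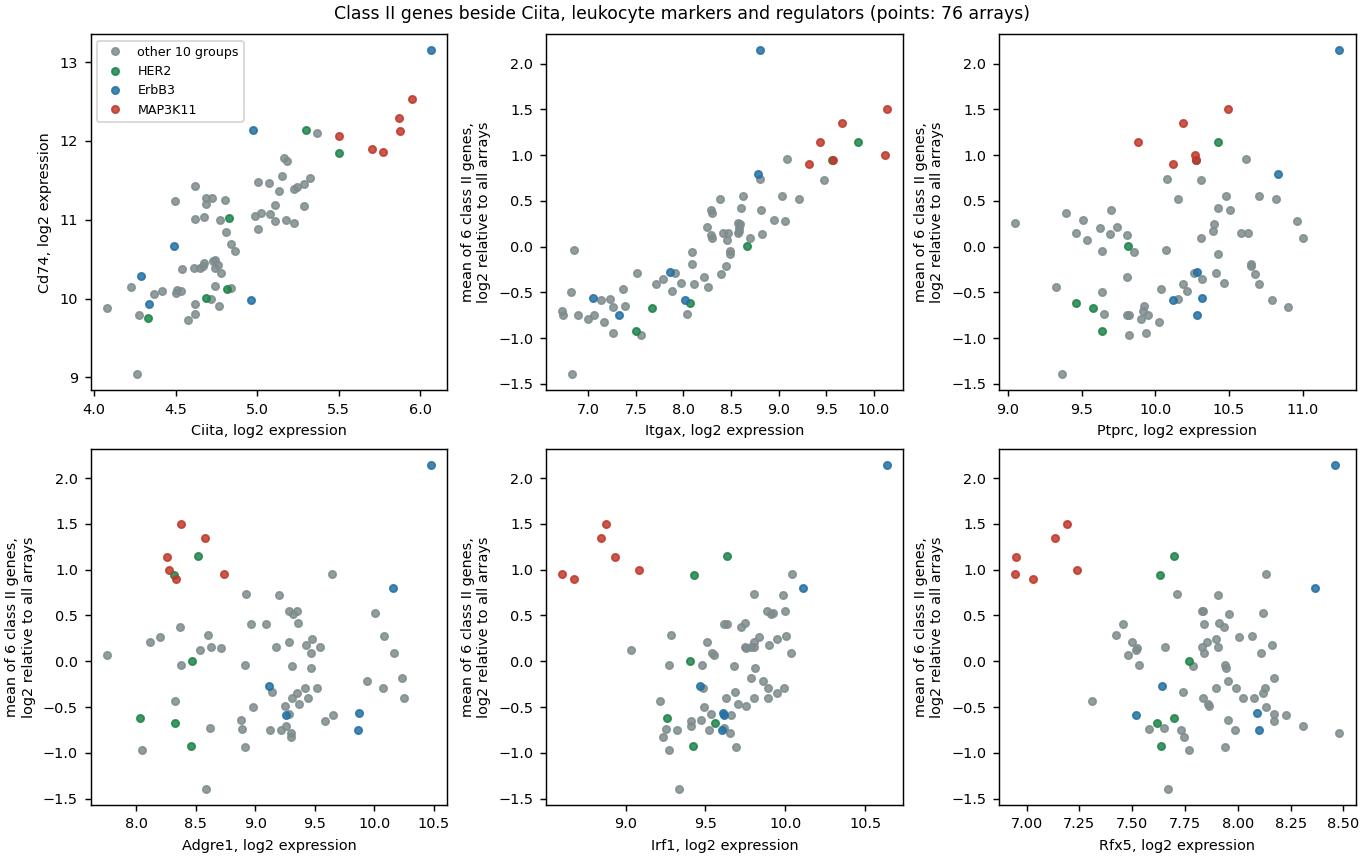
Cd74 against Ciita, and the mean of the 6 class II genes (relative to all arrays) against Itgax, Ptprc, Adgre1, Irf1 and Rfx5, all in log2 units; points are the 76 arrays. Class II rises with Itgax, and the MAP3K11 arrays (red) lie at the low end of Irf1 and Rfx5.

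The rest of the pathway did not move one way in MAP3K11. Each count that follows stands beside 25% of all genes called higher and 29.3% called lower against the other groups, or 17.3% and 22.1% with the block. Of the other class II chains, 4 of 4 tested were higher: H2-Ea by 0.65 ± 0.10 (SE; adjusted p = 1.53e-07), H2-DMb2 by 0.55 ± 0.19, H2-Oa by 0.28 ± 0.11 and H2-Eb2 by 0.22 ± 0.07. With the block H2-Ea alone remained (0.000195). H2-Ea is annotated as a transcribed pseudogene and is inactive in C57BL/6 mice, yet its probe set measured 7.20 to 8.58 over all arrays. What this probe set bound was not tested, so its call is not evidence of an I-E α chain. Of its other probe sets 1 was higher by 1.28 ± 0.22 and 1 lay below the trp level in all arrays. H2-Ob, a chain of H2-DO that edits the work of H2-DM, did not pass the filter; it averaged 4.18 ± 0.37 (SD, n = 6) in MAP3K11 and reached 6.54 in ErbB3 T3 replicate 2.

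The machinery that cuts the invariant chain and antigens showed no common direction. Of 10 genes tested, the protease Ctsb was higher (0.24 ± 0.06, SE), the asparagine endopeptidase Lgmn was lower (-0.51 ± 0.16) and Sppl2a was lower (-0.81 ± 0.09; adjusted p = 3.11e-11), all 3 also with the block. Sppl2a is the membrane protease that removes the last stub of Cd74. Ctss, the main protease of the invariant chain, differed by -0.24 ± 0.15 (adjusted p = 0.185) and the thiol reductase Ifi30 by -0.02 ± 0.17 (0.93).

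Among the DNA-binding factors and coactivators through which Ciita acts, 5 of 9 tested were lower in MAP3K11 and 0 higher. Rfx5, the X box factor, fell by 0.79 ± 0.09 (SE; adjusted p = 1.10e-10, and 1.16e-08 with the block) on the log2 scale. Its MAP3K11 arrays measured 6.95 to 7.24 and all lay below the 70 other arrays (7.31 to 8.48), as was so for 1.67% of all genes. Creb1 fell by 0.32 ± 0.05 and was also called with the block, while Nfyb (-0.23 ± 0.10), Rfxank (-0.20 ± 0.07) and Rfxap (-0.16 ± 0.06) were called only without it. Ciita was higher and Rfx5 lower in the same tumours.

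On the interferon gamma axis 3 of 7 tested genes were lower in MAP3K11 and 1 higher, the same 4 with the block. Irf1, an inducer of Ciita, fell by 0.83 ± 0.10 (SE; adjusted p = 5.96e-10), Irf8 by 0.81 ± 0.20 (0.000425) and the receptor chain Ifngr1 by 0.70 ± 0.15 (8.79e-05). Socs1, which blocks the signal, was higher (0.35 ± 0.11). Ifng was at or below the trp level in every MAP3K11 array, at 2.44 to 2.82.

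Genes of costimulation and its checkpoints, through which cells that present antigen tune T cells, split; Cd80 and Cd86 are costimulatory ligands, Cd40 is a receptor for T cell help, and Pdcd1lg2 encodes PD-L2, a ligand of the inhibitory receptor PD-1. Of 6 tested, Pdcd1lg2 (1.37 ± 0.21, SE; adjusted p = 1.54e-07), Cd40 (1.00 ± 0.14; 1.83e-08) and Cd80 (0.78 ± 0.23; 0.00315) were higher and Cd86 lower (-0.64 ± 0.22; 0.0116), all 4 also with the block. On the side of the CD4 T cell 2 of 5 tested genes were higher, the class II receptor Lag3 (0.52 ± 0.13) and Cd3e (0.19 ± 0.07), of which Lag3 held with the block. Cd4 itself differed by 0.16 ± 0.07 (adjusted p = 0.0587).

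**Figure D5:**
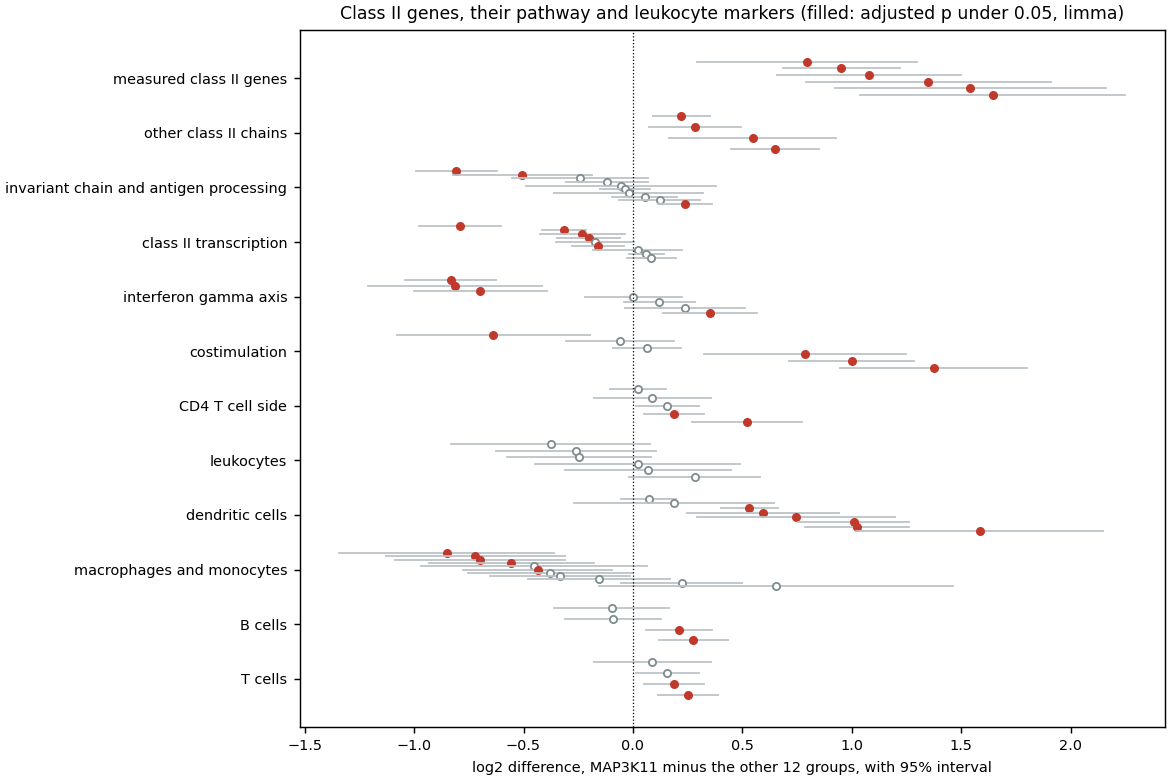
Log2 difference in MAP3K11 from the other 12 groups, with 95% intervals, for the measured class II genes, their pathway and leukocyte markers; filled points passed limma's test at an adjusted p under 0.05. The class II genes and dendritic cell genes lie to the right, Rfx5, Irf1 and Sppl2a (the leftmost points of their rows) at about -0.8, and macrophage genes mostly to the left.

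Markers of the cells that carry class II differed in direction. Of 6 general leukocyte genes tested, limma called 0 in MAP3K11, with 0 at an unadjusted p under 0.05; Ptprc differed by 0.07 ± 0.19 (SE; adjusted p = 0.781). Of 8 dendritic cell genes 6 were higher and 0 lower: Itgax by 1.58 ± 0.28 (2.81e-06), the chemokine Ccl22 by 1.02 ± 0.12, the factor Batf3 by 1.01 ± 0.13, the lectin Clec10a by 0.75 ± 0.23, the receptor Ccr7 by 0.59 ± 0.17 and the growth factor receptor Flt3 by 0.53 ± 0.07; 5 held with the block, Clec10a not. Flt3 was above all other arrays in every MAP3K11 array (6.61 to 6.93, against 5.79 to 6.59), as were 1.69% of all genes. Ccr7 ran from 4.57 to 6.51 and Ccl22 from 4.73 to 6.69 in MAP3K11, reaching below the medians of the other arrays (4.84 and 4.77). In the other groups they averaged 4.88 and 4.76, below the lowest array median (5.45), so low signal limits both. The dendritic cell genes did not all follow class II across arrays. With the mean of the 4 chains, Itgax correlated at 0.85, Flt3 at 0.40 and Ccr7 at 0.35. Once group means were removed, the values were 0.79, -0.0032 and 0.18. The dendritic cell factor Zbtb46 differed by 0.07 ± 0.06 (adjusted p = 0.337) and the conventional dendritic cell marker Xcr1 did not pass the filter. The mean of the 9 measured dendritic cell genes stood at 0.20 to 0.97 above its average over arrays in MAP3K11 and at -0.52 to 0.54 elsewhere.

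Macrophage genes went the other way. Of 11 tested, 5 were lower and 0 higher: Ms4a7 by -0.85 ± 0.25 (SE), the surface receptor Adgre1 by -0.72 ± 0.21, the complement genes C1qb by -0.70 ± 0.19 and C1qc by -0.56 ± 0.19, and Cd68 by -0.44 ± 0.17; 4 held with the block, Cd68 not. Csf1r, the macrophage growth factor receptor, differed by -0.16 ± 0.16 (adjusted p = 0.426). The mean of the 11 macrophage genes ran from -0.52 to -0.08 in MAP3K11 and from -1.10 to 0.88 elsewhere. By group it was -0.31 in MAP3K11, lower in HER2 (-0.41), RON+MSP (-0.35) and RONd160 (-0.34), and higher in the remaining groups. Against HER2 alone the median difference of the 11 genes in MAP3K11 was 0.07. Of 4 B cell genes tested Pax5 (0.28 ± 0.08) and Cd79a (0.21 ± 0.08) were higher and Ms4a1, which encodes CD20, differed by -0.09 ± 0.11 (0.499); of 4 T cell genes Cd8a (0.25 ± 0.07) and Cd3e were higher, and none of these 4 calls held with the block. The mean of the B cell genes ran from -0.08 to 0.30 in MAP3K11 and from -0.30 to 0.57 elsewhere. None of the defining markers Ms4a1, Cd79a, Cd3e or Csf1r was at the trp level in any array. That is a low bar: Ms4a1, Cd79a and Cd3e averaged 4.30, 4.51 and 5.28, below the lowest array median (5.45). No neutrophil gene of 3 was called by limma, and 0 had an unadjusted p under 0.05.

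Outside the leukocytes, 4 of 6 epithelial genes were higher in MAP3K11, with Krt19 by 2.47 ± 0.42 (SE), Krt8 by 0.67 ± 0.14, Cldn7 by 0.31 ± 0.12 and Epcam by 0.20 ± 0.08, and Krt19 and Krt8 held with the block. Of 7 fibroblast genes 6 were higher, with Thy1 by 1.58 ± 0.21, Pdgfrb by 1.06 ± 0.24 and Col1a1 by 0.87 ± 0.19, and Dcn was lower by -1.47 ± 0.26, all 7 also with the block. Of 5 endothelial genes 4 were higher (Tie1 by 0.70 ± 0.18, Kdr by 0.65 ± 0.16, Cdh5 by 0.54 ± 0.17 and Tek by 0.53 ± 0.21; 3 with the block). Of 7 skeletal muscle genes 6 were lower, among them Myh1 by -4.35 ± 0.55, Acta1 by -3.52 ± 0.86, Tnnc2 by -2.59 ± 0.98 and Tnnt3 by -2.13 ± 0.83; Myh1 and Acta1 alone held with the block, and Myh1 averaged 2.86 in MAP3K11, below the trp level. The part of these cell types in the class II result was not tested.

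The T label did not separate the class II genes. By limma 0 of 6 were called for T2 against T1 and 0 of 6 for T3 against T1, with 0 at an unadjusted p under 0.05, and 0% of all genes were called in each. H2-Aa differed by 0.03 (95% interval -0.37 to 0.43) between T2 and T1 and by 0.21 (-0.22 to 0.64) between T3 and T1. For Ciita the intervals were -0.21 to 0.13 and -0.10 to 0.27.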

How the data were processed

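Total RNA of tumours was measured on 76 Affymetrix arrays, per the labels. The authors deposited log2 values for 45101 probe sets; the submitters' processing notes name affy, with normalization and summarisation not given in the sources used here. Values were used as deposited. Of the probe sets 34958 name 1 gene, 932 several and 9211 none; each of 18194 genes is its highest-mean probe set. Genes above the 40th percentile of an array in at least 4 arrays (13868) were tested by limma 3.58.1 (statmod 1.5.0, and data.table, version 1.17.8, R 4.3.3) with introduced gene and T label as terms (61 residual degrees of freedom), two-sided, Benjamini-Hochberg over all genes tested; a call is an adjusted p under 0.05. The script was checked on simulated data. Pairs of arrays as a block were tried beside it, an idea from earlier results.

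The class II genes and the gene lists were chosen with earlier results of these data known. All listed class II genes are named. Of each other list up to 4 called genes with the largest difference in MAP3K11 are named, with Ptprc, Itgax, Flt3, Ms4a1, Csf1r, Adgre1, Cd3e, Epcam, Krt8 and H2-Ea. Ctss, Ifi30, Ifng, Cd4, Zbtb46, Xcr1, H2-Ob, Krt18, Cdh1, and further called genes, were named after their values were seen. Genes most alike are the 5 highest correlations. Alternatives changed the scaling, the filter, the probe sets, the terms, the block and the arrays. The number of arrays limits the precision. A gene that the title names is not reported here.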

Additional observations from a re-analysis of the deposited data

Results flagged for a closer look

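In FGFR2aIIIc, the array T2 replicate 1 lay far below the other 5 in H2-Aa, at 8.88 against 9.56 in the next lowest. The gap was 0.64 of the group's range, where 0.625 is the limit for 6 arrays (Dixon's test). The same array lay far below in Ciita, at 4.08 against 4.53 (0.69 of the range). Its Cd74 (9.88) was also the lowest of the group, while its H2-Eb1 (6.43) was the highest. Of 91 sets of a gene and a group looked at, 2 were picked out, and chance picks about 1 in 20.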

How the results depend on the processing

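The 6 genes called higher in MAP3K11 against the other 12 groups were called under all 16 alternatives, except that the mean of all probe sets drops Ciita below the filter and gave 5 of 5. Leaving out single arrays gave 6 in MAP3K11 against the other groups, 2 to 4 against MAP3K7 (4 with all arrays), 5 to 6 against HER2, 0 to 3 in FGFR2aIIIb and 0 to 1 in PIP5K1B. With pairs of arrays as a block, 1 gene was called against MAP3K7 and 0 in PIP5K1B; with the mean of all probe sets PIP5K1B had 0, Ciita not being tested. Without the pair ErbB3 T1 replicate 2 and ErbB3 T3 replicate 2, an alternative chosen after seeing the data as was leaving out single arrays, ErbB3 and RONd160 had 2 each. The causes of these changes, the smaller number of arrays among them, were not tested. The same counts, within 1.5 times, held for every other comparison and alternative run. The share of higher among called genes moved from 60.2% to 44.5% in PIP5K1B with quantile normalization, and with median centring from 60.4% to 72.7% in FGFR2aIIIb, 47.8% to 31.3% in RSK2, 48.8% to 59.9% in RON+MSP and 63.1% to 49.2% in TNK2.

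The labels' replicate numbers did not pair the arrays: same-numbered arrays of different groups correlated at a median of -0.04. With T label and number as a replicate block, 6 genes were called in MAP3K11 against the other groups, 6 against HER2 and 4 against MAP3K7, H2-DMa in place of H2-Aa. It changed no other count by over 1.5 times. Low signal limits Ifng and the weakest Ciita probe set. It also limits the main Ciita probe set outside MAP3K11, which passed the filter level in 33 arrays there, where H2-Aa did in 70.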
